A study of Drosophila melanogaster with 2 samples.

Results

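The binding sites described here are the peaks of the Drosophila repressor E(spl)mδ-HLH whose summits lay at divergent promoters, where a gene on each DNA strand starts close by. A summit, the base of a peak with the most signal, counted as divergent when it lay within 500 bp of annotated protein-coding transcription starts of at least 2 different genes on opposite strands. Of 2750 peaks in the authors' thresholded list, 300 (10.9%, exact binomial 95% interval 9.77 to 12.1) met this rule. A further 1224 summits (44.5%) lay within 500 bp of starts on 1 strand only and are named one-direction summits, and 1226 (44.6%) lay away from protein-coding starts. The measured value of each peak did not enter the rule. The series was chromatin immunoprecipitation sequencing (ChIP-seq) of whole Drosophila melanogaster embryos aged 2 to 12 h, with both sexes pooled. Every sample came from a transgenic line stably expressing E(spl)mδ-HLH with GFP fused to its C-terminus, and there was 1 group of 2 biological replicates, with no second genotype or treatment to compare. The promoter that drives the transgene is not given in the sources used here. As the antibody label names the factor and not GFP, whether the untagged protein was also precipitated is not known. In chromatin from whole embryos, binding in fewer cells and weaker binding in each cell cannot be told apart.

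In a divergent promoter the start sites of a gene pair lie back to back, so that a short stretch of DNA serves both genes. Such pairs are common in the compact fly genome and hold many housekeeping genes, whose promoters often carry the DNA replication-related element (DRE), bound by Dref, or the core promoter element Motif 1, bound by M1BP, in place of a TATA box. E(spl)mδ-HLH is a repressor of transcription with a basic helix-loop-helix domain. Notch signalling switches on its gene, one of the Enhancer of split cluster, to hold back neural fate. Proteins of this family bind class B and class C E-boxes and N-boxes, whereas proneural activators bind class A E-boxes together with Daughterless.

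The DNA between the starts shows how little sequence a pair can share and which short strings stood in it. The stretches below come from 9 head-to-head members whose starts are separated by DNA without any annotated exon. They are written 5′ to 3′ on the plus strand of the NCBI Release 6 genome, the assembly that UCSC names dm6, from the base after the start of the minus-strand gene (named first) to the base before the start of the plus-strand gene. Capitals mark class A, B and C E-boxes, N-boxes, the DRE, Motif 1 and GAGA strings on either strand, each of which is spelled out with its share of windows further on. They mark a string anywhere between the starts. At RpL7, RpL14 and Ltn1/CG9300 the marked strings lay 53 to 61 bp from the summit, outside the windows counted further on. The summits at RpS27 and RpL7 lay outside the stretches shown. The window at the RpL7 summit held class B and C E-boxes that are not in its stretch. RpS27/Nup37 (chr3R:25247515-25247657), RpL7 with Ripalpha (chr2L:10200975-10201003), RpS25/CG4820 (chr3R:11216288-11216534) and RpL14 with Nelf-E (chr3L:8600880-8601005) are shown as 4 of the 10 strongest members, all with a ribosomal protein gene. The pairs eIF3a/CG1074 (chr3R:4433896-4433964), Top3beta/wuho (chrX:6287991-6288099) and AP-2sigma/Idi (chr3R:21270076-21270125) are shown for a DRE, a Motif 1 string and a class A E-box between the starts. Ltn1/CG9300 (chr3L:19552291-19552419) is shown for a class B E-box beside a DRE, and pico/Nup205 (chrX:19852060-19852213) as one of the 5 weakest members.
RpS27/Nup37: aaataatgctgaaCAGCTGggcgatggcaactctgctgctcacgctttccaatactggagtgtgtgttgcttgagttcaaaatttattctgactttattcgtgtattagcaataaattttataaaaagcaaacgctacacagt
Ripalpha/RpL7: cccactccgcggccAGTGTGACCgtttgg
RpS25/CG4820: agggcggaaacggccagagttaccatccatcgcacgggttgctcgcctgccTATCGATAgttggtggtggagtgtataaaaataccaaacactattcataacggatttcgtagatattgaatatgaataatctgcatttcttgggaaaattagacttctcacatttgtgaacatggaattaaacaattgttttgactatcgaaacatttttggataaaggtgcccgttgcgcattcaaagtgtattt
Nelf-E/RpL14: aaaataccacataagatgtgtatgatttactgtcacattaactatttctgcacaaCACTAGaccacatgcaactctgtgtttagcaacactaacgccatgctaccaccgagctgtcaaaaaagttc
eIF3a/CG1074: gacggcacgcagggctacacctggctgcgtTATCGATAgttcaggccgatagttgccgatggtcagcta
Top3beta/wuho: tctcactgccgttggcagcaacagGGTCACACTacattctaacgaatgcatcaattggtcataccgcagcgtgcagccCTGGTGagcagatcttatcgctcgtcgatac
AP-2sigma/Idi: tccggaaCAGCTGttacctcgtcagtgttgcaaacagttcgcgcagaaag
Ltn1/CG9300: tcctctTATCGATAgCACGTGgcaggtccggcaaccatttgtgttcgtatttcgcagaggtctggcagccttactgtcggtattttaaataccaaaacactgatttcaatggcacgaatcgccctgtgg
pico/Nup205: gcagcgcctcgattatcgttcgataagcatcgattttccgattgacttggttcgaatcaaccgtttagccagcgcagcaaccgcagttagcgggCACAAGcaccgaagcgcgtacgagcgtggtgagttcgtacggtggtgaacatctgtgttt
The 29 bases between Ripalpha and RpL7 were 69.0% G or C, whereas the 247 bases between RpS25 and CG4820 were 39.3% G or C.

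The label divergent held in the annotation. The nearest starts on each strand pointed away from each other at 292 of the 300 members (97.3%, interval 94.8 to 98.8). At the other 8 the transcribed regions overlapped by 26 to 441 bp, the strongest of them at ras, which encodes the first enzyme of guanine nucleotide synthesis, and stx (rank 359). Head-to-head starts were 12 to 687 bp apart with a median of 298 bp. The closest pairs were Dsp1/CG9921 (12 bp), Naa80/MED6 (19 bp), Naa15-16/mRpS14 (21 bp), UQCR-C1/CycC (26 bp) and RpL7/Ripalpha (30 bp). The farthest were app/CG32100 (687 bp), Fdh/CG4596 (657 bp), lin-52/CG15771 (616 bp), ro/T48 (563 bp) and SNRPG/mthl1 (549 bp). The members covered 291 different gene pairs and 582 different genes as the nearest starts. Most members (283) had starts of 2 genes within reach, 15 had 3 and 2 had 4, namely CG18809, CG33932, COX6B and Rpp20 on X, and CG31650, CG33995, CG44000 and CG44001 on 2L. Members lay on every large arm, with 75 on 3R, 73 on 2R, 65 on 3L, 51 on 2L and 36 on X, which was 9.94% to 11.6% of the summits of each arm. The fourth chromosome held 0 among 5 summits, which allows a share of up to 60% by the limit of 3 counts (exact binomial upper limit 52.2%). At the edge of the rule, the member with the farthest opposite start was at Vha100-2/Vti1b (499 bp, signal 183), and the first summit outside it was at Sec61alpha/Daxx (501 bp, signal 233).

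Where the starts were well apart, the summits lay close to one of them and not midway. The distance from the summit to the nearer start had a median of 26 bp (quartiles 12 and 44.3 bp), and that to the farther start a median of 302 bp. Among the 187 members whose starts were at least 200 bp apart, 179 (95.7%, interval 91.7 to 98.1) were closer to a start than to the midpoint of the starts. In those pairs the median distance was 26 bp to the nearer start, 181 bp to the midpoint and 354 bp to the farther start. A summit outside the starts is always closer to a start than to the midpoint, and 180 of all 292 head-to-head summits lay between the starts. The share for summits placed at random was not computed. Among the 105 members with closer starts, where start and midpoint are near each other, 62 (59.0%, interval 49.0 to 68.5) were closer to a start. Of all members, 81.7% (interval 76.8 to 85.9) had a start within 50 bp, against 56.7% (interval 53.9 to 59.5) of one-direction summits. A member has at least 2 starts to be near, and the difference was not tested. The nearer start was on the plus strand at 152 of 300 members. In 38.3% of members the summit was inside the transcribed side of the nearer start, and its median position was 10 bp upstream of it. The position was close to the same in each replicate's own list, where the median distance to the nearer start was 25 bp in replicate 1 and 32 bp in replicate 2. Both replicates picked the same nearer start at 274 of 299 members (91.6%), and at 182 of 186 (97.8%) with starts at least 200 bp apart.

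**Figure D1:**
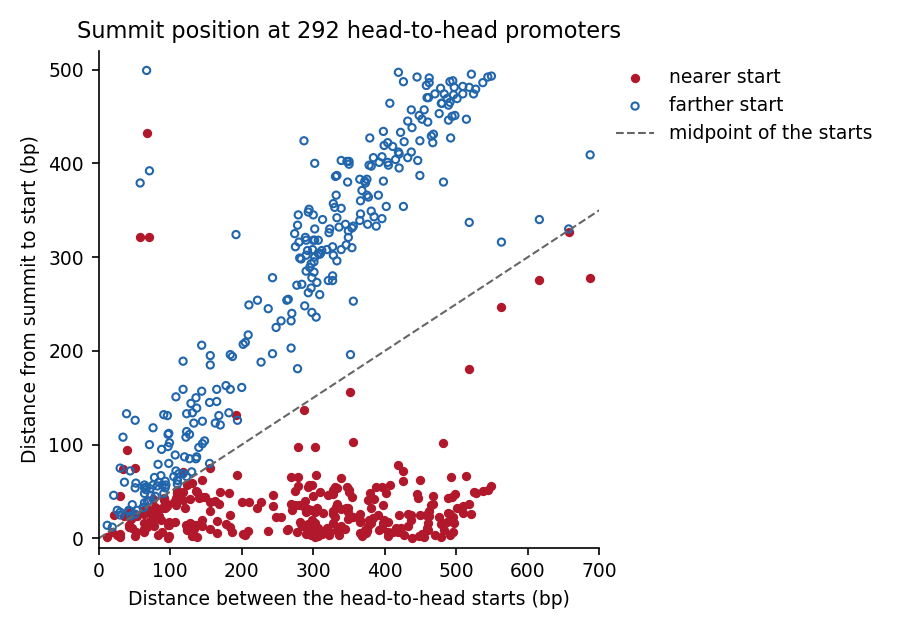
Distance in bp from each summit to the nearer start (filled red) and the farther start (open blue) against the distance in bp between the starts, for the 292 head-to-head members, with a dashed line at the midpoint. The nearer start stayed at a median of 26 bp while the farther start moved away with the spacing.

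Few members had a second peak at the other start. Of the 187 members with starts at least 200 bp apart, 9 (4.81%) had another thresholded summit within 100 bp of the farther start. In the longer list of 30000 peaks called on both replicates pooled, 46 (24.6%, interval 18.6 to 31.4) had one. In those 46, the peak at the farther start had a median of 0.429 times the signal of the member, and it was the stronger in 7. A member had to pass the threshold and the farther peak did not, which favours ratios below 1. In the 9 members whose farther peak passed as well, the median ratio was 1.27 and the farther peak was the stronger in 7. These are members and not gene pairs. A pair could be counted from both of its summits, as CG12091/pns was, or only from the weaker one, as Rack1/mts was. The count of 7 therefore does not show which start of a pair tends to have the stronger peak. The replicate lists gave a peak at the farther start for 54 of the 187 members in replicate 1 and for 28 in replicate 2. In all, 9 gene pairs held 2 members. At Rack1, which encodes a scaffold protein of the small ribosomal subunit, and mts, the catalytic subunit of protein phosphatase 2A, one summit lay 3 bp from Rack1 (signal 561, rank 46) and another beside mts (signal 166, rank 1289). At pst/Sec63 the peak at Sec63, a protein of translocation into the endoplasmic reticulum, had a signal of 424 and the one at pst 142.

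The strongest members were at ribosomal protein genes. The signal given here is the authors' enrichment value per peak, which has no unit and is comparable only within a list. Of the 15 members with the highest signal, 13 had a cytosolic ribosomal protein gene, and these 13 summits lay 4 to 48 bp from its start and 75 to 464 bp from the start of the partner. The 15 ranked 3 to 62 of 30000 in replicate 1 and 3 to 281 in replicate 2. RpS27, of the small ribosomal subunit, and Nup37, a nuclear pore protein, shared the strongest one (3R 25247388 to 25247612, signal 1304, rank 3). It had a signal of 849 in replicate 1 and 462 in replicate 2, with its summit 13 bp from RpS27 and 157 bp from Nup37. RpL13A and Dph4, a diphthamide synthesis gene, had the next (3R 5624338 to 5624544, signal 992, rank 7), with 635 in replicate 1 and 357 in replicate 2. The peak of RpL7 and Ripalpha (2L 10200932 to 10201163, signal 968, rank 10) had 501 in replicate 1 and 482 in replicate 2, and its summit was 45 bp downstream of the RpL7 start. RpL28 and eIF1, a start codon selection factor, followed (3L 3222900 to 3223100, signal 801, rank 15), with 498 in replicate 1 and 304 in replicate 2. All 4 ranked within the first 20 of each replicate's list.

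The next 11 members had signals of 483 to 742. They were RpL41/NaCP60E (742), RpS25/CG4820 (667), RpL4/BCAS2 (629), RpLP0/CG7130 (621), RpS16/CG4294 (611), RpL14/Nelf-E (566), Rack1/mts (561), Kap-alpha3/Son (495), RpL31/CG12929 (489), RpS19a/Rok (486) and RpS21/CG3104 (483). Nelf-E is a subunit of the complex that holds RNA polymerase II in a paused state, and Kap-alpha3 is a nuclear import receptor. Kap-alpha3/Son, the strongest member with neither a ribosomal protein gene nor Rack1, ranked 44 in replicate 1 (signal 364) and 281 in replicate 2 (signal 128). The 5 weakest members had signals of 116.8 to 117.1. They were at Nop17l/sax, where sax is a receptor for Dpp-type ligands, Nup205/pico, C3G/pod1, CG9062/CG13220 and Mcr/Bsg, with ranks of 2729 to 2741 in the thresholded list. Nup205/pico ranked 6723 in replicate 1 and 837 in replicate 2, so the weak end of the list did not mean a low rank in both.

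In all, 34 members (11.3%, interval 7.98 to 15.5) had a cytosolic ribosomal protein gene on one side, and their signal had a median of 390, against 154 in the other 266 members. Ribosomal protein genes at one-direction summits had a median of 271, against 163 at the other one-direction summits, and the difference between the layouts was not tested. They made up 20 of the strongest 50 members and 28 of the strongest 100. The summit was nearer to the ribosomal protein start in 27 of the 34 (79.4%), at a median distance of 23.5 bp from that start and 232 bp from the partner's. In the other 7 the summit was nearer to the partner, and the signal was 121 to 194. Among them the partner was CG5276 beside RpL24-like, Axn beside RpS28a, 14-3-3zeta beside RpLP0-like, JhI-21 beside RpL7-like and CG17271 beside RpS20. Axn is a scaffold that holds back Wingless signalling. RpL24-like, RpLP0-like and RpL7-like are named by similarity, and their yeast relatives act in ribosome assembly rather than in the finished ribosome. RpS14a (signal 226) lies beside the near-identical copy RpS14b, so reads may have been split between them. RpL13 shared its member with Dref, the DRE-binding factor itself (2L 9967227 to 9967362, signal 414), with the summit 24 bp from RpL13 and 60 bp from Dref.

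Other housekeeping groups had smaller counts at divergent summits. In the background, 601 of 13945 protein-coding genes (4.31%) had a start within 500 bp of a divergent summit, and 1679 (12%) within 500 bp of any thresholded summit. Among the 5052 genes in annotated head-to-head pairs, 599 (11.9%) were at a divergent summit. Of 93 cytosolic ribosomal protein genes, 56 stood in an annotated head-to-head pair and 33 (35.5%) were at a divergent summit, against 38 at a one-direction summit. Of 44 eIF translation factor genes, 7 (15.9%) were at a divergent and 8 at a one-direction summit. The divergent ones were led by eIF1 (signal 801), eIF3a (325), eIF4EHP (237), a repressive cap-binding protein, and eIF3h (222). Of 21 nucleoporin genes, 4 (19.0%) were, namely Nup37 (1304), Nup98-96 (300), Nup44A (168) and Nup205 (117), and the summit at Nup37 was the one beside RpS27. Mediator, which links activators to RNA polymerase II, had 3 of 25 genes (12%), namely MED27 (361), MED6 (186) and MED19 (178). The spliceosomal set had 2 of 9, SmD3 (395) and snRNP-U1-C (120). Mitochondrial ribosomal proteins had 6 of 73 (8.22%), or 10.3% of the 58 that stood in pairs, which is near the 11.9% of all paired genes. At the strongest 4, mRpL53 (326), mRpS23 (265), mRpL34 (217) and mRpS6 (175), the summit was nearer to the partner, AGO1, CenG1A, Dg and Cip4. These partners encode an Argonaute protein, an Arf GTPase regulator, the adhesion receptor dystroglycan and a membrane-curving actin regulator. Oxidative phosphorylation had 4 of 80 (5%), namely UQCR-C1 (147), ND-PDSW (131), COX7C (129) and COX6B (126). The proteasome had 1 of 48, Rpn9 (208), a subunit of the regulatory particle. DNA replication had 1 of 23, PolA2 (171), and chaperones 1 of 33, the mitochondrial Hsc70-5 (135). None of the 33 aminoacyl-tRNA synthetase genes and none of 15 Taf genes was at a divergent summit, while 23 synthetase and 12 Taf genes stood in pairs. Counted over paired genes, the share was 58.9% for cytosolic ribosomal proteins, 33.3% for eIF factors and 28.6% for the spliceosomal set. It was 22.2% for nucleoporins, 15.8% for Mediator and 9.52% for oxidative phosphorylation. Chaperones had 7.14%, DNA replication 6.67% and the proteasome 3.85%. These compare with 11.9% of all paired genes, and the differences were not tested. Among the other genes named, the summit was also nearer to the partner at eIF1, Nup98-96, MED27, snRNP-U1-C, COX7C and Hsc70-5, 206 to 383 bp from the named start. The same held at Rpn9 (176 bp), Nup37 (157 bp), PolA2 (65 bp) and eIF3a (40 bp). Hsc70-5 and COX7C, however, each had a further, slightly weaker member nearer to their own start (signals 129 and 126).

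Genes on the E(spl), proneural, neuroblast, segmentation and Hox lists were at one-direction summits or at none, and few of them have a head-to-head partner. The lists do not cover every gene of neural fate and patterning. In the background, 8.05% of all protein-coding genes had a start within 500 bp of a one-direction summit. Of 18 Notch pathway genes, 11 stood in head-to-head pairs, 2 were at divergent summits and 8 at one-direction summits. The 2 were mam, the coactivator of the Notch nuclear complex (2R 13991055 to 13991304, signal 186, rank 1002), and spen, a nuclear corepressor (2L 158910 to 159159, signal 185, rank 1018). The mam peak ranked 997 in replicate 1 and 1536 in replicate 2, with its summit 23 bp from the mam start and 473 bp from RN-tre. The spen peak ranked 744 in replicate 1 and 2361 in replicate 2, with its summit 3 bp from the spen start. Of the 11 listed E(spl) genes, 0 were at divergent summits and 9 at one-direction summits, and 1 of the 11 stood in a pair. Likewise 0 of 14 proneural, 0 of 19 neuroblast, 0 of 18 segmentation and 0 of 8 Hox genes were at divergent summits, against 5, 12, 5 and 2 at one-direction summits. Of these 59 genes, 2 neuroblast genes stood in head-to-head pairs, and the others had no head-to-head partner start within 1000 bp. With 4.31% of all genes at divergent summits, counts of 0 in lists this short lie near the background.

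Above the threshold, the signal at divergent promoters was close to that at one-direction promoters, but in the longer lists it was higher. The median signal was 159 at the 300 divergent summits, 164 at one-direction summits and 159 at summits away from starts. The ratio of the divergent to the one-direction median was 0.973 in the thresholded list, 0.987 among the first 2750 peaks of replicate 1 and 0.943 among those of replicate 2 (SD of the replicate ratios 0.031, n = 2). These 3 lists end at a high signal, which draws their medians together. Over all 30000 peaks of the pooled list the median was 69.2 at 1319 divergent, 61.5 at 6425 one-direction and 49.0 at 22256 away summits, and the ratio was 1.12, in the opposite direction. Over all peaks of each replicate the ratio was 1.09 in replicate 1 and 1.12 in replicate 2. The longer lists include background and were added after the data were seen, and no test was made with 2 replicates. Members were spread evenly over the ranks, with 60, 57, 54, 61 and 68 in successive blocks of 550 peaks from the strongest down. They held 11 of the strongest 50 peaks and 15 of the strongest 100.

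**Figure D2:**
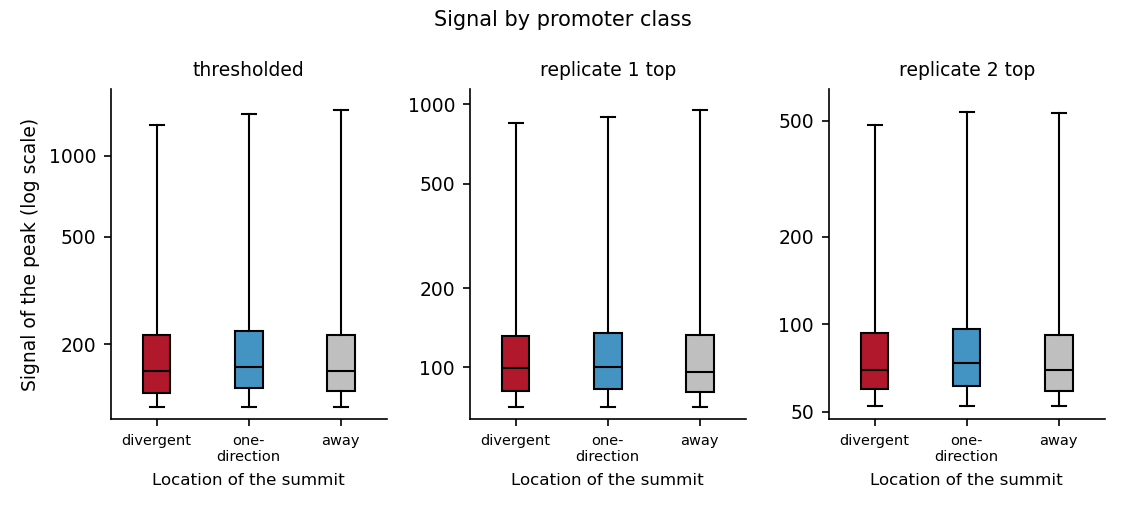
Signal per peak on a log scale at divergent, one-direction and away summits, in the thresholded list and among the first 2750 peaks of each replicate, with boxes from the lower to the upper quartile, a line at the median and whiskers to the lowest and highest peak. The medians of the 3 locations lie close together in each list (159, 164 and 159 in the thresholded one).

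Nearly all members were found in both replicates, as were nearly all thresholded peaks, but the order of the members differed. A peak of each replicate's list of 30000 overlapped 299 of 300 members (99.7%), against 99.2% of one-direction summits and 99.3% of all thresholded peaks. The thresholded list was called on both replicates, which favours such overlap. The exception among members was Sgt/BicD, which had none in replicate 1 and ranked 3652 in replicate 2. Among the first 2750 peaks, 242 members (80.7%) had an overlapping peak in replicate 1 and 232 (77.3%) in replicate 2. Both replicates had one at 184 members (61.3%, interval 55.6 to 66.9), against 63.9% of one-direction summits and 61.7% of all thresholded peaks. The share of members was therefore near the background. Ranks in replicate 1 and replicate 2 had a Spearman correlation of 0.44 over the 299 members with a peak in both, whose ranges were limited by the shared threshold. Of the 34 members with a ribosomal protein gene, 25 ranked better in replicate 1, as did 138 of the other 265. Among the largest gaps in rank were those at Hel89B/mor (214 in replicate 1, 7992 in replicate 2), Axn/RpS28a (4783 in replicate 1, 200 in replicate 2), kuk/Keap1 (1234 in replicate 1, 26294 in replicate 2) and Dhpr/bol (355 in replicate 1, 5956 in replicate 2). Of these, mor encodes a core subunit of the Brahma chromatin remodeller and Keap1 a sensor of oxidative stress. The signal of Hel89B/mor was 204 in replicate 1 and 34.4 in replicate 2, and it was 236 in the thresholded list (rank 551).

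**Figure D3:**
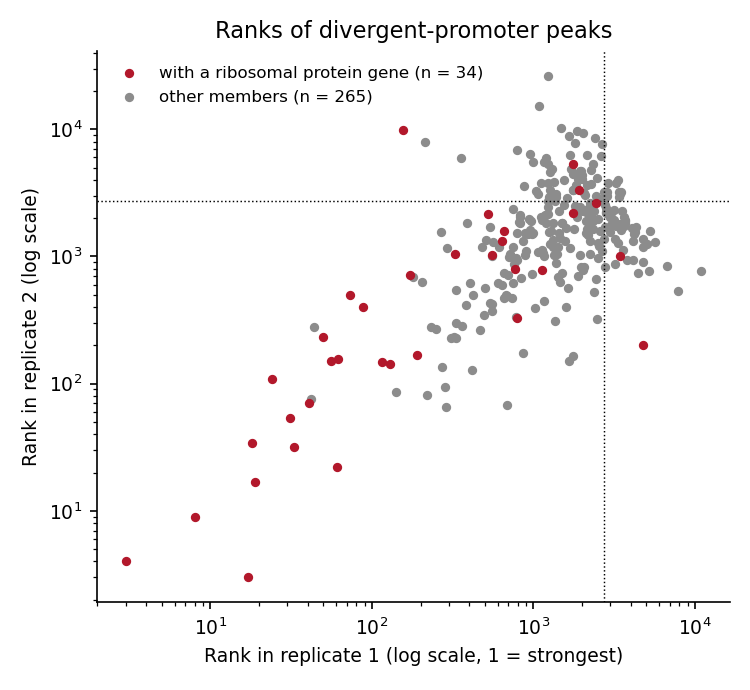
Rank of the 299 members with a peak in both replicates, in replicate 1 and replicate 2, on log scales where 1 is the strongest, with members at ribosomal protein genes in red and dotted lines at rank 2750. The ribosomal members fill the strong corner, and 25 of 34 ranked better in replicate 1.

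From the side of the annotation, most divergent promoters had no thresholded summit. Of 2667 head-to-head gene pairs with starts at most 1000 bp apart, 310 (11.6%, interval 10.4 to 12.9) had a summit within 500 bp of starts of both genes, and the replicate lists gave 10.8% and 11.1%. Of the 5052 genes in such pairs, 847 (16.8%) had a summit within 500 bp, against 832 of the 8893 other genes (9.36%), but a summit at a pair counts for both of its genes. When a summit counted only for the gene with the nearest start, the shares were 11.1% for genes in pairs and 8.996% for the others. For genes with 1 annotated start they were 6.63% and 5.42%. The replicate lists kept this order, with 6.397% against 5.08% in replicate 1 and 6.71% against 5.54% in replicate 2, and the difference was not tested.

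The share of pairs with a summit varied with the spacing of the starts and, among pairs at most 500 bp apart, was lowest at 201 to 300 bp. It was 16.3% (128 of 786) at 1 to 200 bp, 8.86% (48 of 542, interval 6.60 to 11.6) at 201 to 300 bp and 17.4% (116 of 667) at 301 to 500 bp. Replicate 1 gave 15.1%, 8.30% and 16.5%, and replicate 2 gave 17.7%, 8.12% and 14.5%. In bins of 50 bp the lowest was 201 to 250 bp, with 13 of 242 pairs (5.37%). Without pairs that hold a ribosomal protein gene the shares were 14.8%, 7.33% and 16.0%. In the longer pooled list the shares were 61.1%, 48.0% and 55.9%. There the lowest bin of 50 bp was 151 to 200 bp (64 of 149, 43.0%), with 47.9% at 201 to 250 bp, so the place of the dip was not kept. The DNA between these starts was 43.0% G or C at 1 to 200 bp, 34.8% at 201 to 300 bp and 33.7% at 301 to 500 bp, and its part in the dip was not tested. Pairs more than 500 bp apart had few summits (4.03% at 501 to 750 bp), but there the window around both starts leaves less room for one. The bins were chosen after the data were seen, and no test was made.

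**Figure D4:**
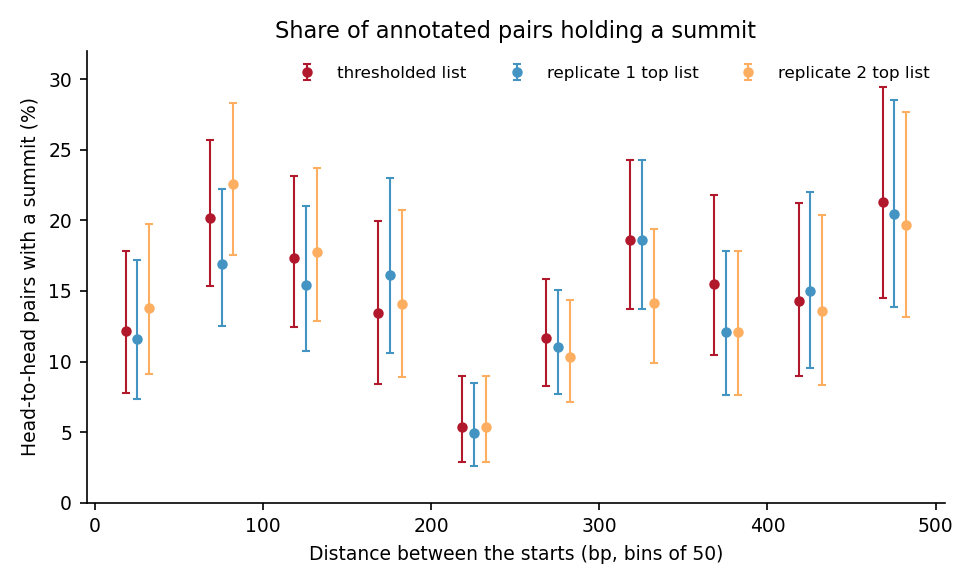
Percentage of annotated head-to-head pairs with a summit within 500 bp of both starts, in bins of 50 bp of spacing, for the thresholded list and the first 2750 peaks of each replicate, with exact binomial 95% intervals. In each list the lowest share was at 201 to 250 bp (5.37%, 4.96% and 5.37%).

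Short strings typical of housekeeping promoters were more frequent at divergent than at one-direction summits, while GAGA strings were less frequent. Exact matches were sought on both strands in windows that took in the summit and 50 bp on each side of it, for 13 strings of which none contains another. TATCGATA, the DRE, was in 7.67% of divergent windows (interval 4.92 to 11.3), 2.53% of one-direction windows and 0.08% of windows away from starts, and in 4.47% of windows at all 19607 protein-coding starts. GGTCACACT, of Motif 1, was in 9% (interval 6.01 to 12.8), 3.10% and 0.08%, and in 3.65% of all starts. CATCNCTA, a further promoter string, was in 4.33%, 1.96% and 0.57%, and in 3.43% of all starts. At least 1 of these 3 was in 60 divergent windows (20%, interval 15.6 to 24.98), against 85 of 1224 one-direction windows (6.94%, interval 5.58 to 8.52). The replicate lists gave 19.2% against 5.96% in replicate 1 and 20.1% against 7.37% in replicate 2. GAGAGAG, part of the site of GAGA factor, was in 3% of divergent windows (interval 1.38 to 5.62), 10.5% of one-direction windows and 9.46% of windows away from starts, and in 1.53% of all starts. TATAAA was in 3.33% of divergent and 4.49% of one-direction windows, and in 15.3% of all starts. With windows of 100 bp to either side it was in 14.3% of divergent and 9.97% of one-direction windows, so the order of the layouts was not kept. Set against pairs without a summit, the 3 promoter strings stood in 10.1% of windows at the midpoint of 1703 pairs at most 500 bp apart. The members' windows held 50.5% G or C, against 32.9% in those midpoint windows. Members' windows lay at summits, mostly near a start, so they and the midpoint windows are not at like positions. Windows at all protein-coding starts held 43.7% G or C, and 10.7% of them had at least 1 of the 3 strings. None of these differences was tested.

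The strings linked to the E(spl) family did not separate the layouts. CACGTG, the class B E-box, was in 3% of divergent and 2.78% of one-direction windows, and in 1.82% of all starts. CACGCG, the class C E-box, was in 8% of divergent and 8.74% of one-direction windows, and in 3.60% of all starts. CACNAG, the N-box, was in 17.7% of divergent and 16.5% of one-direction windows, and in 13.0% of all starts. GTGCAC, a reordering of the class B E-box with no role assigned here, was in 5% and 4.08%, and in 2.09% of all starts, so it too was more frequent at summits than at starts in general. CAGCTG, the class A E-box, was in 53 divergent windows (17.7%, interval 13.5 to 22.5), 9.80% of one-direction windows (interval 8.20 to 11.6) and 8.85% of all starts. The replicate lists gave 18.9% against 9.55% in replicate 1 and 17.0% against 10.6% in replicate 2. Of its 57 matches in members, 44 lay upstream of the nearer start, as did 21 of 24 DRE matches. It was 17 of 29 for Motif 1, 31 of 57 for the N-box and 11 of 25 for the class C E-box. The windows themselves lay more on the upstream side, as the summit was downstream of the nearer start in 38.3% of members. A background share was not computed. Members with a ribosomal protein gene held CAGCTG in 4 of 34 windows and the DRE in 5 of 34. The remaining strings were CATATG (1% of divergent and 2.04% of one-direction windows), CAGGTAG (1% and 0.74%) and GTGNGAA, the core of a Su(H) site (6.67% and 7.598%), with 2.08%, 0.48% and 5.47% of all starts.

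**Figure D5:**
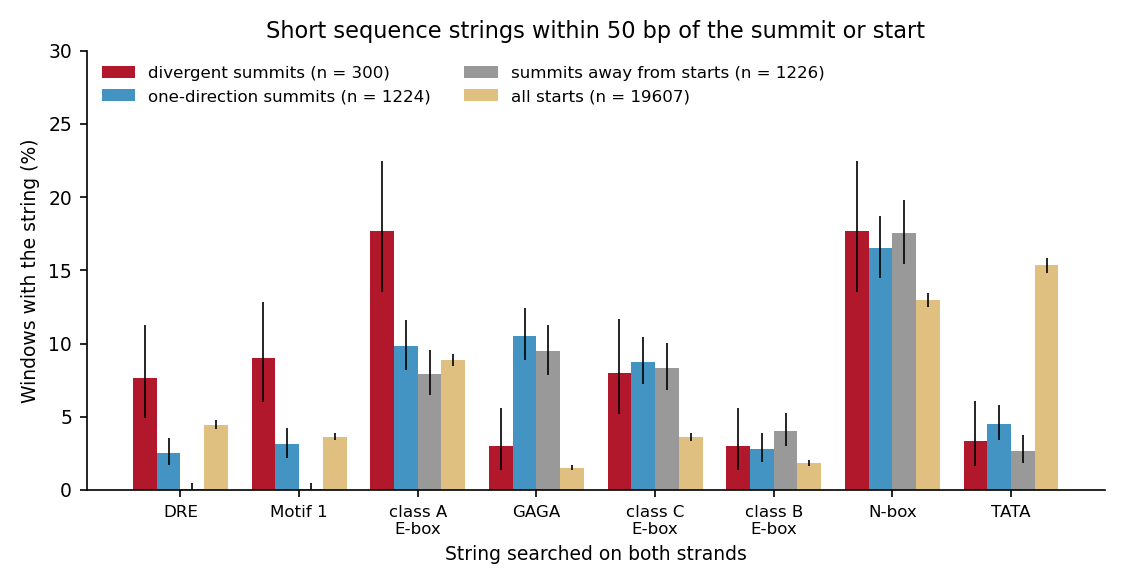
Percentage of windows, each a summit or start with 50 bp on both sides, that hold each string on either strand, for divergent, one-direction and away summits and for all protein-coding starts, with exact binomial 95% intervals as error bars. The DRE, Motif 1 and class A E-box bars are highest for divergent summits (7.67%, 9% and 17.7%), whereas the GAGA bar is 3% there and 10.5% at one-direction summits.

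At a member, the start near the summit and the start far from it differed in base composition. Windows with 50 bp on each side held 49.3% ± 5.74 G or C at the nearer start and 42.8% ± 7.64 at the farther start (SD, n = 300 each), and 43.7% ± 8.71 at all starts. The windows at the summits held 50.5% ± 5.83 at divergent promoters and 52.4% ± 6.08 at one-direction promoters. The 3 promoter strings were in 22.0% of windows at nearer starts (interval 17.4 to 27.1) and in 26.7% at farther starts (interval 21.7 to 32.1). CAGCTG was in 15.7% at nearer and 9.67% at farther starts, and the DRE in 8.33% at nearer and 12.3% at farther starts. The DRE and Motif 1 strings were thus not confined to the start where the summit lay. Base composition moved with the position of the summit, and its part in which start had the summit was not tested.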

How the data were processed

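The samples were 2 biological replicates of 1 group, treated as immunoprecipitated chromatin. A free-text label calls them input, but the assay and antibody labels and a separately listed control do not, and 1 age field is garbled, so the age is from the source label. The replicates' origin is given only as biological, so their spread may be partly technical. The authors deposited 4 peak lists on dm6, per the labels and file headers: 30000 peaks for each replicate, 30000 called on the replicates pooled, and 2750 thresholded. Each peak has the authors' signal value, used only within its list, and the deposited summit offset, another column, in bp from the peak start. The sources used here do not name the aligner, the peak caller, a version or the threshold. The lists give no read depth, so each interval covers the error of counting alone.

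Starts came from the Ensembl annotation of BDGP6 (13945 protein-coding genes, 19607 starts) and sequence from the NCBI Release 6 genome, in which 16193 of 16213 annotated start codons read ATG. Coordinates are 1-based. Shares carry exact binomial 95% intervals. No test over regions was made. Replicate lists were taken at their first 2750 peaks, and a shared base sufficed for peaks to overlap. The location rule and pairing recovered every planted answer on simulated data. Members, lists and strings were chosen with earlier results of these data known. Named are the 15 strongest and 5 weakest members, up to 4 per gene list, the 5 closest and 5 farthest pairs, the 5 largest rank gaps and members with 4 genes, some of which are not reported here. Other names, among them the ribosomal members nearer to a partner and the sequences shown, were picked after their values were seen. Analyses used python 3.11.15, numpy 2.4.6, pandas 2.3.3, scipy 1.17.1 and matplotlib 3.10.9.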

Additional observations from a re-analysis of the deposited data

How the results depend on the processing

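Across 53 alternatives of 6 results, 37 stayed within the counting interval or the spread between replicates and 16 moved beyond it. With a start window of 250 bp, divergent summits were 4.47% of the list and 4.91% of annotated pairs had one. With 1000 bp these were 18.7% and 18.1%, and 54.7% of head-to-head summits lay between the starts, against 61.6% (180 of 292). With 1 start per gene, 94.3% were head-to-head and 54.8% lay between the starts. The stronger part of the list, 1375 peaks, left 5.66% of pairs with a summit and had 95.2% of divergent summits in the first peaks of both replicates. All peaks of each replicate list gave 99.7%. The ratio of divergent to one-direction median signal, 0.973, was 1.12 over all peaks of the pooled list, 1.09 over those of replicate 1 and 1.12 over those of replicate 2, alternatives added after the data were seen. Pairs at most 500 bp apart had a summit in 14.6%. Leaving out a replicate gave 55.6% to 67.7% between the starts. The RefSeq annotation also gave 300 members. It has nearly the same starts (19608 against 19607), so it was not an independent check, although its alternatives count among those that stayed. Of 52 alternatives for the strings, 9 moved, all with a window of 100 bp to either side. No paired analysis was possible because there was 1 group. The unknown depth and the 2 replicates limit every share.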
